A study of Mus musculus with 14 samples.

Results

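The genes described here are the 51 protein-coding genes on the 19 mouse autosomes and chromosome X whose symbols begin with Psm, a letter from a to g and a digit. They were taken by symbol from the 21631 protein-coding genes of a RefSeq table of the assembly GRCm38.p6, and the rule uses no peak. Of the 51 genes, 49 encode subunits, activators, an inhibitor or assembly chaperones of the proteasome. The other 2 match the symbol only: Psmc3ip encodes a protein of meiotic recombination, and Psme3ip1 a protein that binds the activator made from Psme3.

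The proteasome is the protease that degrades ubiquitin-tagged proteins in the nucleus and cytosol. Its barrel-shaped core particle is a stack of rings of alpha subunits, which gate the entry, and beta subunits, some of which carry the catalytic sites. A regulatory particle at the end of the barrel binds ubiquitin chains, removes them and unfolds the substrate with a ring of ATPases. In blood cells and in cells exposed to interferon, some catalytic beta subunits are replaced by immunoproteasome subunits, which change the peptides made for presentation to T cells.

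Chromatin immunoprecipitation and sequencing (ChIP-seq) located 13 transcription factors in Hoxb8-FL, a line of multipotent mouse blood progenitors that depends on an estradiol-controlled Hoxb8 protein and Flt3 ligand. Each factor (the ETS factors Spi1, Fli1 and Erg, then Runx1, Cebpa, Cebpb, Gata2, Meis1, Lmo2, Tal1, Lyl1, Gfi1 and Gfi1b) has 1 library and 1 peak list, and 1 further library was made with control IgG and enters no count here. All 14 libraries come from the same cell line, cultured with estradiol and FLT3 and with no further treatment, and their label is LMPP-like, after the lymphoid-primed multipotent progenitor. With 1 library per factor there is no replicate error and no test between factors or gene groups, and the label of the cells cannot be checked, since the files hold positions only.

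The lists hold between 3217 peaks (Gata2) and 76378 peaks (Spi1), each 400 bp wide, with no score or read count, so the depth behind a peak is unknown and the length of a list is no amount of binding. A peak was near a gene if its midpoint lay within 1 kb of the lower or upper boundary of the gene, and in the locus if it lay in the gene or within 50 kb of it. Beside each count stand the share of all protein-coding genes with such a peak and the number expected if the proteasome genes behaved like all genes of like length, that is, of the same class when genes are split by length into 10 equal classes. A factor without a peak at a gene was not called there at an unknown depth, which does not show that it was absent.

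The promoters of 7 members are shown first because the results below turn on them. They are the 200 bases before the listed start site, 5′ to 3′ on the strand of the gene, from RefSeq on GRCm38.p6. Psmc1, Psmd4 and Psme4 are among the members with the most factors at the start. Psmb4 and Psmd8 are 2 of the 4 members with the same set of 4 factors. Psma6 has a crowded start site inside the gene, which is the one shown, and Psmd11 has no peak near either boundary. Capitals mark GGAA and its reverse complement TTCC, the core read by ETS factors such as Erg, Fli1 and Spi1.
Psmc1: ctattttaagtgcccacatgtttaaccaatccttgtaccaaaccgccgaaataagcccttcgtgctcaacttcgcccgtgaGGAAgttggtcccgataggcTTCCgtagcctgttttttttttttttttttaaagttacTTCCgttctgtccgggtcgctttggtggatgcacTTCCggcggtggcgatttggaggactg
Psmd4: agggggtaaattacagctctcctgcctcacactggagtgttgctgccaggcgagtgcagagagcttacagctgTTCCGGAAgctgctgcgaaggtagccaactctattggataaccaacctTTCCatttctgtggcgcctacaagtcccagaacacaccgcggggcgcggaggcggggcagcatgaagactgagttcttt
Psme4: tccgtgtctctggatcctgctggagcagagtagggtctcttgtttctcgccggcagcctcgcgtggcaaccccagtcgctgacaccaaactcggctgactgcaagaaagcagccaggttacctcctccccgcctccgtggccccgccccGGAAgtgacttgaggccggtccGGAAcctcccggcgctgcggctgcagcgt
Psmb4: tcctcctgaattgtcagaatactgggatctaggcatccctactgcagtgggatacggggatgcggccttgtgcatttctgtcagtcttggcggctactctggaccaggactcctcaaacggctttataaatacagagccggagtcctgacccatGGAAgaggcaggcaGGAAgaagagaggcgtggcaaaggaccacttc
Psmd8: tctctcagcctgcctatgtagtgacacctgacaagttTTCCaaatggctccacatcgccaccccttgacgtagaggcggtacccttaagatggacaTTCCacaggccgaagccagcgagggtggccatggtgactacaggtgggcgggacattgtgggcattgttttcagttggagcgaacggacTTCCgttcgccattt
Psma6: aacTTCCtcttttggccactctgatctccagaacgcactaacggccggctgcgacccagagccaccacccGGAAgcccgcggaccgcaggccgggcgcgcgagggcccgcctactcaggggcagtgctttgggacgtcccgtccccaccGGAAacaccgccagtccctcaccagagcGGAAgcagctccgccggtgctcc
Psmd11: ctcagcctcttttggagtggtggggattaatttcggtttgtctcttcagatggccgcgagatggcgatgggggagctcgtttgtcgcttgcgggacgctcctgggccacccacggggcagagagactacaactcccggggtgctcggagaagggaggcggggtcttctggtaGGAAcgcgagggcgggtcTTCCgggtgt
These windows lie at chr12:100110002-100110201 (+ strand) for Psmc1, chr3:95042615-95042814 (- strand) for Psmd4 and chr11:30771575-30771774 (+ strand) for Psme4. Those of the identical set lie at chr3:94886959-94887158 (- strand) for Psmb4 and chr7:29180674-29180873 (- strand) for Psmd8. The internal start of Psma6 follows chr12:55398625-55398824 (+ strand), and the start of Psmd11 follows chr11:80428415-80428614 (+ strand). The core is present in each of the 7 windows, including that of Psmd11.

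Most proteasome genes carried peaks at their boundaries, and few carried many. Of the 51 members, 44 (86.3%) had a peak of 1 or more factors within 1 kb of a boundary, beside 53.5% of all protein-coding genes and 28.8 members expected from genes of like length. The median member had 3 of the 13 factors near a boundary, with a range of 0 to 11, and the median protein-coding gene had 1. The share of all genes with 7 or more factors near a boundary was 6.04%, and 1 member of 51, Psmc1, was among them. Among genes with any peak near a boundary, 39 of 44 members (88.6%) had between 2 and 6 factors, beside 64.6% of such genes in all. So the members were more often occupied than all genes, with a middle number of factors at most of them.

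**Figure D1:**
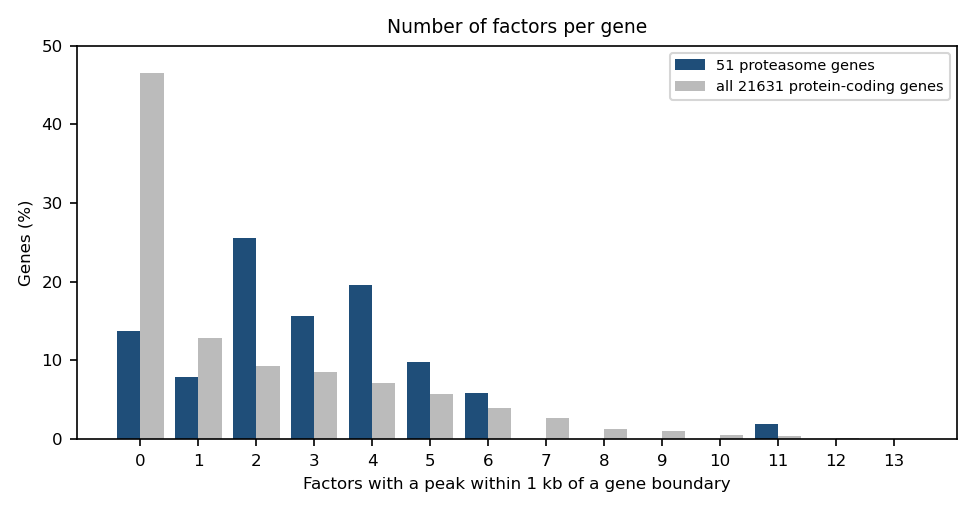
Share of genes (%, vertical axis) by the number of factors with a peak within 1 kb of a gene boundary (horizontal axis), for the 51 proteasome genes (dark bars) and all 21631 protein-coding genes (grey bars). The members peak at 2 to 4 factors and 1 member stands at 11, while 46.5% of all genes have none.

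Neighbouring genes share part of these peaks. Of the 154 peaks near members, 47 also lay within 1 kb of a boundary of another protein-coding gene, so the lists alone cannot say which gene they belong to. A neighbour lay within 1 kb of 21 members, and 19 of these had a peak near, with a median of 3 factors. Of the 30 members with no such neighbour, 25 (83.3%) had one, with a median of 2.5 factors. Across all genes the shares were 76.2% with and 45.9% without a neighbour, so the members without a neighbour also stood above the genes without one.

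The peaks sat at gene starts. For 43 members the RefSeq promoter table gives a strand and a start site; it has no entry for Psmb1, Psmb2, Psmb7, Psmc3, Psmd3, Psmd7, Psma8 and Psmg2. Of the 43, 37 (86.0%) had a peak within 1 kb of the boundary at their start, beside 48.8% of all genes with an entry. At the end of the gene the count was 4 of 43 (9.30%), beside 14.1% of all genes. The ends with a peak were those of Psmb10, Psmd4, Psmg3 and Psmg4.

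By factor, Spi1 and Fli1 were found at more than 1 in 2 of the members. Spi1 (PU.1), an ETS factor of myeloid and lymphoid progenitors, had a peak near 29 of 51 members, beside 37.9% of all genes and 20.6 members expected from genes of like length. Fli1, an ETS factor of blood stem cells and endothelium, was near 27, beside 25.5% of all genes and 14.4 expected. Erg, its close relative, was near 14, beside 13% and 7.39 expected. Each of these counts lies above the share of all genes, and that of Spi1, the longest list, does so by the smallest ratio.

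The other factors with many promoter peaks followed the same direction. Runx1, the core-binding factor of definitive blood formation, was near 15 members, beside 17.5% of all genes and 9.50 expected. Cebpb was near 18, beside 22.8% and 12.4 expected, and Cebpa near 17, beside 21.0% and 11.4 expected; both are leucine zipper factors of granulocyte and monocyte development. Lmo2, a bridging protein that binds DNA through partners such as Tal1 and Lyl1, was near 12 members, beside 20.9% of all genes and 11.3 expected. Its count thus stood close to that of genes of like length.

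The remaining factors were found at few members. The repressors Gfi1 and Gfi1b were each near 5 members, beside 8.54% and 6.88% of all genes and 4.53 and 3.53 expected. Gata2, a zinc finger factor of stem and mast cells, was near 4 (Psmb5, Psmc1, Psmd7 and Psmd9), beside 2.42% and 1.31 expected. The homeobox factor Meis1 was near 1, Psmc1, beside 3.18% and 1.67 expected. The basic helix-loop-helix factor Lyl1 was near 1, Psmb2, beside 3.21% and 1.78 expected. Its relative Tal1 was near none of the 51, beside 4.68% and 2.53 expected. With counts this small, 1 or 2 genes would change how they compare with all genes.

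**Figure D2:**
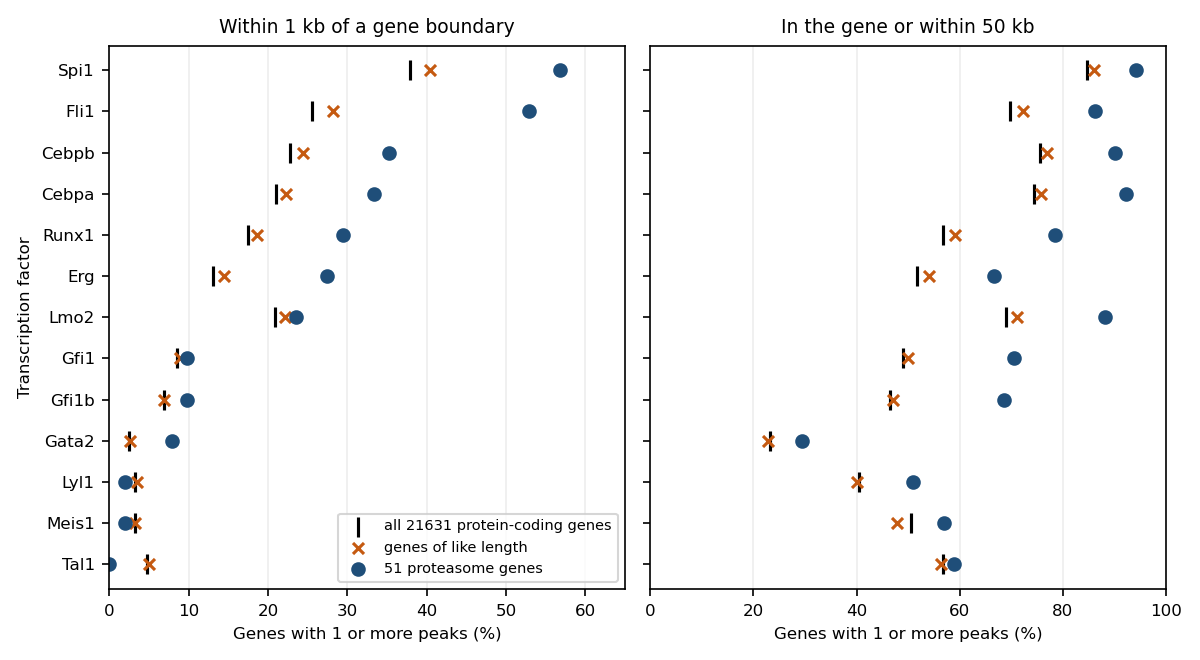
Percentage of genes with 1 or more peaks (horizontal axes) by factor (rows), within 1 kb of a boundary (left) and in the gene or within 50 kb (right); filled points are the 51 proteasome genes, crosses the value expected from genes of like length and vertical ticks all 21631 protein-coding genes. Fli1 and Spi1 lie farthest above the ticks on the left, and Lyl1, Meis1 and Tal1 lie below theirs.

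The core particle genes were nearly all occupied, with sets of factors that differed from gene to gene. Of the 7 genes for alpha subunits of the core, 6 had a peak near a boundary, with a median of 3 factors. Over the 51 members the share was 86.3%, and over all genes 53.5%. Psma4 had 5 (Gfi1, Gfi1b, Lmo2, Runx1 and Spi1), in 1 merged region centred 8 bp upstream of its start site, with boundaries of AY074887 and Hykk within 1 kb. Psma1 had Cebpa, Erg, Fli1 and Spi1, and Psma5 had Cebpb, Gfi1, Lmo2 and Spi1. Psma1 and Psma5 each had 4 factors and shared Spi1 alone. Psma3 had 3 factors, Psma7 had 2, Psma2 had Fli1 alone and Psma6 had none.

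All 7 genes for the constitutive beta subunits had between 2 and 6 factors, beside 76.5% of the 51 members and 34.6% of all genes. Psmb2 had 6 (Cebpa, Cebpb, Gfi1, Gfi1b, Lyl1 and Spi1) with no Erg, Fli1 or Runx1 peak. Psmb3 had 5, in 2 regions: Cebpa, Cebpb and Gfi1b in a region centred 843.5 bp upstream of the start site, and Fli1 and Spi1 in one centred 153 bp upstream. Psmb4 had Erg, Fli1, Runx1 and Spi1. The 3 catalytic subunits had no factor in common: Psmb5 had Cebpa and Gata2, Psmb6 had Cebpa, Cebpb and Spi1, and Psmb7 had Fli1 and Lmo2. With 3 genes, and no factor near more than 56.9% of the members, this is a description.

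The immunoproteasome subunits Psmb8, Psmb9 and Psmb10, which take the place of those 3 catalytic subunits, had Spi1 in common. Spi1 was also near 56.9% of all members and 37.9% of all genes. Psmb8 had 5 factors: Cebpb, Gfi1, Gfi1b and Spi1 in a region centred 529 bp upstream of the start site, and Runx1 with a second Spi1 peak centred 136 bp downstream. Psmb9 had Cebpb and Spi1, in a region centred 297 bp upstream. The antigen peptide transporter gene Tap1 has a boundary within 1 kb of both Psmb8 and Psmb9. Psmb10 had Spi1 alone, with 1 peak at its start and 1 at its end. Erg, Fli1, Lmo2, Cebpa, Gata2, Lyl1, Meis1 and Tal1 had no peak near any of these 3 genes. Erg, Fli1, Lmo2 and Cebpa were near 13%, 25.5%, 20.9% and 21.0% of all genes, so with 3 genes this absence is a description. Cebpa and Fli1 were in the loci of all 3 genes. Erg and Lmo2 were in those of Psmb8 and Psmb9 only, which share 60 peaks.

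The genes for tissue-restricted subunits, Psma8 of the testis and Psmb11 of the thymic cortex, had no peak near a boundary. Each had 10 factors in its locus. The locus of Psmb11 shares all of its 20 peaks with that of Psmb5, which lies 7.32 kb away, so for Psmb11 those peaks cannot be told apart from peaks of its neighbour.

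All 6 ATPase genes of the regulatory particle had a peak near a boundary, beside 86.3% of the 51 members and 53.5% of all genes. Their median was 2.5 factors, with the widest spread of any role, 1 to 11. Psmc1 had 11 factors, all but Lyl1 and Tal1, in 1 merged region of 910 bp at chr12:100109856-100110765 over its start site. Psmc2 had 6 (Cebpa, Erg, Fli1, Lmo2, Runx1 and Spi1) in a region of 420 bp centred 9.5 bp upstream, which also lies within 1 kb of Dnajc2. Psmc5 had Cebpa, Cebpb and Lmo2. Psmc6 had Cebpa and Cebpb, Psmc4 had Fli1 and Spi1, and Psmc3 had Runx1. The ring is built from 1 copy of each of these ATPases. No factor was found at all 6 genes. Spi1, the most frequent factor, was near 56.9% of the members and 37.9% of all genes, so this is a description.

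The 11 non-ATPase genes, which make the scaffold, the ubiquitin receptors and the lid with its deubiquitinase, carried mostly ETS factors and Runx1. Fli1 and Spi1 were each near 8 of the 11, beside 52.9% and 56.9% of all 51 members. Runx1 was near 6 and Erg near 5, beside 29.4% and 27.5% of all 51 members. With 11 genes, which are themselves among the 51, these counts are a description. Psmd4, a ubiquitin receptor, had 6 factors: Cebpa, Cebpb, Erg, Fli1 and Lmo2 in a region of 796 bp at the start, and Spi1 at the end. Psmd7, a lid subunit, had 5 (Cebpa, Fli1, Gata2, Runx1 and Spi1). Psmd14, the deubiquitinase, had Spi1 and Runx1 in separate regions. Psmd11, another lid subunit, had none near a boundary and 11 factors in its locus.

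Of the 5 activator genes, 4 had peaks near a boundary, beside 86.3% of the 51 members and 53.5% of all genes. Psme4, the longest of the 51 genes, encodes a large nuclear activator and had Cebpb, Erg, Fli1, Runx1 and Spi1 in a region of 508 bp centred 90.5 bp upstream. Psme1 and Psme2, which form the interferon-inducible activator, shared Fli1 and Spi1, and Psme1 also had Cebpa and Cebpb. Psme3, the related nuclear activator, had Cebpa, Cebpb, Erg and Fli1 without Spi1. Psme2b, a short gene of 1066 bp that resembles Psme2, had no peak near it and none in its locus, the only member with an empty locus. Its value is uncertain, since the way the authors placed reads shared by such copies is not stated in the labels. The inhibitor gene Psmf1 had no peak near a boundary and 4 factors in its locus.

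Among the assembly chaperones, the 4 of the core particle all had a peak near: Psmg1 had Erg, Fli1, Lmo2 and Runx1, Psmg4 had Cebpb, Fli1 and Spi1, Psmg3 had Spi1 at its start with Cebpa and Cebpb at its end, and Psmg2 had Lmo2. Of the 3 chaperones of the regulatory particle, Psmd5 had Cebpa and Cebpb, Psmd9 had Fli1 and Gata2, and Psmd10 had none. Of the 51 members 86.3% had a peak near, and of all genes 53.5%. With 3 and 4 genes these counts are a description. The 2 genes outside the proteasome that match the symbol, Psme3ip1 and Psmc3ip, both had Erg and Fli1, and Psme3ip1 also had Lmo2 and Spi1.

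**Figure D3:**
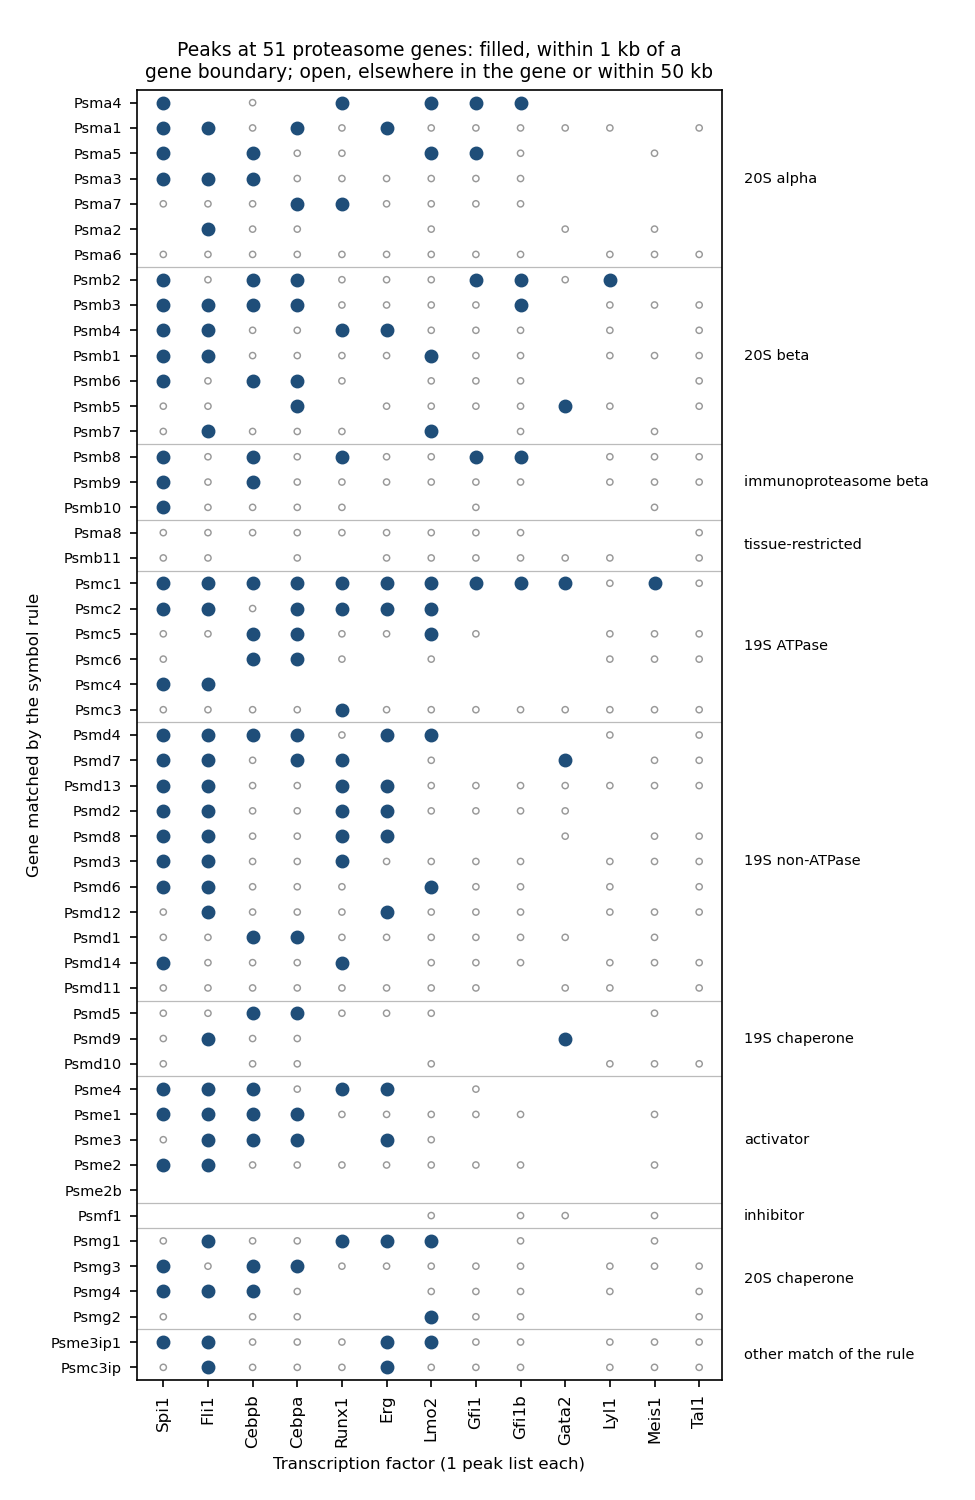
Each row is 1 of the 51 genes, grouped by role, and each column 1 of the 13 factors; a filled point is a peak within 1 kb of a gene boundary and an open point a peak elsewhere in the gene or within 50 kb. Filled points gather in the columns of Spi1, Fli1, Cebpb, Cebpa, Runx1, Erg and Lmo2, the row of Psmc1 is filled in 11 columns, and the column of Tal1 has open points only.

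Members could be sorted by the class of factor at their boundaries. One or more of Erg, Fli1, Runx1 and Spi1 were near 38 members (74.5%), beside 46.1% of all genes, and Cebpa or Cebpb near 23 (45.1%), beside 26.8%. Both classes met at 18 members (35.3%), beside 22.3% of all genes. The first class without Cebpa and Cebpb was at 20 (39.2%), beside 23.7%, and Cebpa or Cebpb without the first class at 5 (9.80%), beside 4.42%. The 5 include Psmc6, Psmd1 and Psmd5, whose whole set was Cebpa with Cebpb. All of Erg, Fli1, Runx1 and Spi1 were near 7 members (13.7%), beside 6.25% of all genes.

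The most frequent set of factors was Erg, Fli1, Runx1 and Spi1 and no other. It was found at 4 members: Psmb4, a beta subunit, and Psmd2, Psmd8 and Psmd13, of the regulatory particle. The share of all genes with exactly this set was not counted, so these 4 genes are a description. In each of these 4 genes the peaks merged into 1 region, from 442 bp wide at Psmb4 to 533 bp at Psmd2, against 400 bp for a single peak. The regions were centred within 31 bp of the listed start sites: 3 bp upstream at Psmd8, 16 bp at Psmd2, 17.5 bp at Psmb4 and 31 bp at Psmd13. Catsperg1 and Ggn lie within 1 kb of Psmd8, and Cox8b and Sirt3 of Psmd13, and the 4 peaks of each also lay near a neighbour. Pogz lies within 1 kb of Psmb4, but none of the 4 peaks there lay within 1 kb of a boundary of another gene. Psmd2 has no such neighbour.

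Pairs of related factors coincided at the members to different degrees. All 14 members with Erg also had Fli1, as did 96.2% of all genes with Erg. Cebpa and Cebpb were both near 12 members, of 17 with Cebpa (across all genes 81.2% of those with Cebpa had Cebpb). Gfi1 and Gfi1b were both near 4 of the 5 members with Gfi1 (57.2% across all genes). Fli1 and Spi1, both ETS factors, were together near 20 of the 27 members with Fli1 (77.1% across all genes).

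Near boundaries Lmo2 was listed at members without its helix-loop-helix partners, which were themselves listed at almost no member. None of the 12 members with Lmo2 near a boundary had Tal1 or Lyl1 there, while 21.6% of the 4514 genes with Lmo2 did. Tal1 was near none of the 51 members and Lyl1 near 1, so this count could hardly have differed. The same share was 7.14% of the 28 ribosomal protein genes with Lmo2 and 10.7% of the 28 respiratory chain genes with it. The one member with Lyl1, Psmb2, had no Lmo2 near. In the wider loci Lmo2, Lyl1 and Tal1 peaks were common, as given below, and at Psma6 they met inside the gene.

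Distances to the start site differed between the factor classes. Positions were taken for all peaks within 1 kb of a start site listed for a member, internal starts included, with negative values upstream. Erg peaks lay at a median absolute distance of 47.5 bp (16 peaks), beside 72 bp over all genes, and all 16 were within 250 bp. Fli1 peaks lay at 54.5 bp (24 peaks), beside 83 bp, and Runx1 peaks at 92 bp (13 peaks), beside 91 bp. These medians are smaller than the 400 bp width of a peak.

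Spi1 peaks lay at a median absolute distance of 78 bp (28 peaks), beside 213 bp over all genes. Cebpa and Cebpb peaks lay farther out and mostly upstream. Cebpa peaks had a median absolute distance of 264 bp (15 peaks, 13 of them upstream), beside 179 bp over all genes. Cebpb peaks had one of 278 bp (16 peaks, 14 upstream), beside 195 bp. Thus ETS peaks were closer to the start at members than over all genes, and C/EBP peaks were farther from it. The members number few peaks per factor and no test was run.

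**Figure D4:**
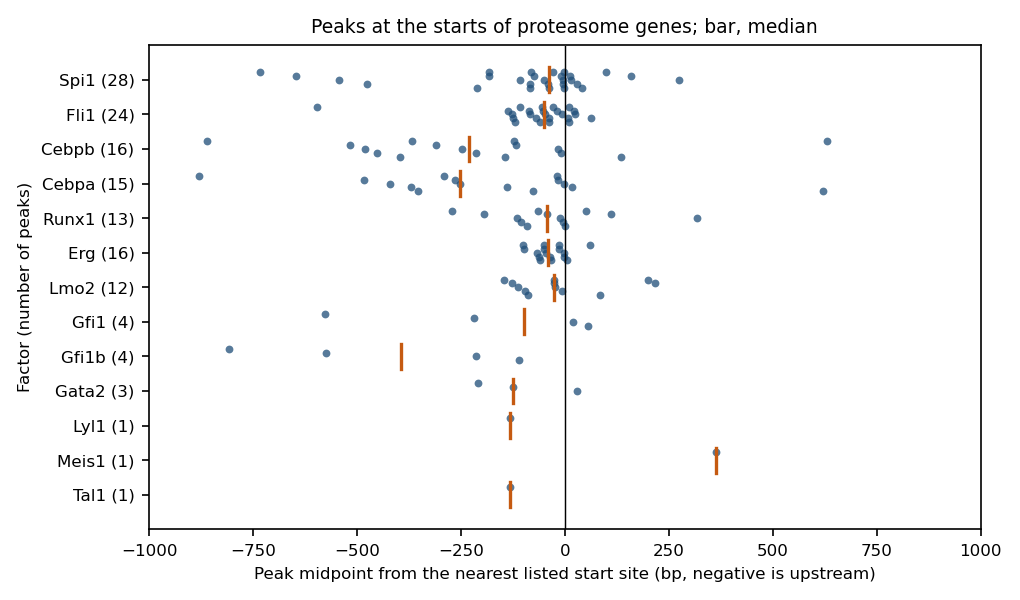
Position of each peak midpoint relative to the nearest listed start site of a proteasome gene (bp, negative upstream; horizontal axis) by factor (rows, with the number of peaks); points are single peaks, spread vertically for view, and bars are medians. Erg and Fli1 gather at the start site with medians of -40.5 and -50.5 bp, whereas Cebpa and Cebpb have medians of -253 and -230 bp.

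Promoter letters were searched in windows from 250 bases before to 50 after the first listed start site, on both strands. A peak at the start means one within 1 kb of the boundary at the start of the gene. At Psma3 and Psme3ip1 that boundary lies 5340 and 10598 bp from the start site searched. Their windows thus hold none of the peaks counted for them. The ETS core, GGAA or TTCC, was found in 43 of 43 member promoters and in 95.7% of the 17274 promoters with an entry, so its presence tells nothing apart. The longer form CCGGAAGT or ACTTCCGG, which contains the core, was found in 8 of 43 (18.6%), beside 5.35% of all promoters. The 8 were those of Psmc1, Psmc2, Psmd6, Psmd12, Psmd13, Psme3, Psme4 and Psmg3. In Psmc1, shown above, it begins at position -29 from the start site, in Psme4 at -53, and in Psmd13 at -6.

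The long form was more frequent with ETS peaks than without, at members as over all genes, and so it was with Runx1 peaks. It was in 6 of the 14 member promoters with an Erg peak at the start (42.9%) and in 2 of the 29 without one (6.90%). Over all promoters the same shares were 21.0% with and 3.20% without an Erg peak. For Fli1 it was in 7 of 23 member promoters with a peak and in 1 of 20 without, beside 16.3% and 1.92% over all promoters. For Spi1 the counts were 6 of 24 and 2 of 19, beside 10.0% and 3.07%. For Runx1, not an ETS factor, they were 4 of 12 and 4 of 31, beside 12.3% and 3.97%. None of the 12 member promoters without an Erg, Fli1 or Spi1 peak at the start held it. The share of all promoters lacking all of these peaks was not counted. With the low shares given above for promoters without a peak, 12 promoters are too few to show a difference.

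Other letters were about as common as elsewhere. The Runx letters TGTGGT or ACCACA were in 8 of 43 member promoters (18.6%), beside 14.9% of all. Of the 12 members with a Runx1 peak at the start, 2 held them (16.7%), beside 13.9% of all such genes. The C/EBP letters TTGCNNAA or TTNNGCAA were in 4 (9.30%), beside 10.3%, and in 2 of the 14 members with a Cebpa peak at the start (14.3%, beside 12.8% of all such genes) and 1 of the 16 with a Cebpb peak (6.25%, beside 12.6%). The Gata letters AGATAA or TTATCT were in 3 (6.98%), beside 10.0%, and the E box CANNTG in 26 (60.5%), beside 68.8%. Most promoters with a Runx1, Cebpa or Cebpb peak at the start lacked these letters in the window, at members as over all genes.

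The antioxidant response letters TGANNNNGC or GCNNNNTCA are of interest here because Nfe2l1 and Nfe2l2, known activators of proteasome genes, read such a site; neither factor was assayed. They were in 23 of 43 member promoters (53.5%), beside 41.7% of all. The NF-Y letters CCAAT or ATTGG were in 15 (34.9%), beside 39.4%. The AP-1 letters TGACTCA or TGAGTCA, which can overlap the antioxidant form, were in 1 (2.33%), beside 4.61%. Median G+C content was 57.3% in member promoters and 56.3% in all, with a median of 19 and 14 CpG. Taking all genes of like promoter G+C content in place of like length gave 23 members with Fli1 of 43, where 13 were expected, and 14 with Erg, where 6.75 were expected. By the same comparison of 43 members, Lmo2, with 9 beside 10.3, and Gfi1, with 4 beside 4.24, stood below the expected count. By length, over all 51 members, they stood above it, with 12 beside 11.3 and 5 beside 4.53. The 2 comparisons cover different sets of members, so they do not show what G+C content alone changes.

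Loci were almost all occupied, by more factors and with less contrast to other genes. Of 51 members, 50 had a peak in the gene or within 50 kb, beside 88.0% of all genes and 45.4 expected from genes of like length. The median member had 10 factors there, and the median protein-coding gene 9. Psmc1, Psmc3 and Psmd13 had all 13. Psmc4 had 2, Fli1 and Spi1, the same pair as at its start, and no further factor within 50 kb.

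By factor, Spi1 was in 48 loci, beside 84.7% of all genes and 43.9 expected, Cebpa in 47, beside 74.3% and 38.6, and Cebpb in 46, beside 75.5% and 39.3. Lmo2 was in 45, beside 69.0% and 36.3, Fli1 in 44, beside 69.7% and 36.9, and Runx1 in 40, beside 56.8% and 30.1. Gfi1 was in 36, beside 49.1% and 25.5, Gfi1b in 35, beside 46.5% and 24.0, and Erg in 34, beside 51.7% and 27.6. Tal1 was in 30, beside 56.8% and 28.7, Meis1 in 29, beside 50.6% and 24.4, Lyl1 in 26, beside 40.5% and 20.4, and Gata2 in 15, beside 23.2% and 11.6. Tal1, not listed near any member, thus had peaks in 30 of their loci, the count nearest to its expected value.

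The regions with the most factors in the loci mostly belonged to places nearer another gene. Merging touching or overlapping peaks gave 554 regions in the loci, of which 51 held 7 or more factors. Of all 121980 merged regions, 8533 did. A member was the nearest gene for 12 of those 51, and the same share for the other regions in the loci is not given here. Regions with 12 factors numbered 3, each with all but Gata2. One, in the locus of Psmc3 at chr2:91096454-91096926, lies inside Spi1, the gene of a factor assayed here, 37.3 kb from Psmc3. Another, in the locus of Psme3ip1 at chr8:94551404-94551944, lies inside Cpne2. The third, in the locus of Psmd13 at chr7:140874121-140874702, lies inside Sirt3, 7.98 kb from Psmd13. Counts for the loci therefore include peaks of neighbours, and 2 further pairs of members shared theirs: Psmb8 and Psmb9 shared 60 peaks, and Psme1 and Psme2 shared 34.

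At the boundaries the pattern was smaller. The peaks near members merged into 57 regions, of which 15 held 1 factor, 18 held 2, 7 held 3, 10 held 4, 5 held 5, 1 held 6 and 1 held 11. The 2 regions with the most factors were those of Psmc1 and Psmc2. Next came 5 regions of 5 factors, at Psmb2, Psme4, Psmd7, Psmd4 and Psma4.

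Psma6, an alpha subunit gene of 34.2 kb without a peak at either boundary, was occupied inside. Its lower boundary is the first listed start site, and a second listed start site lies 14.6 kb into the gene. A region with 7 factors (Erg, Fli1, Lmo2, Lyl1, Runx1, Spi1 and Tal1) at chr12:55398495-55398984 is centred at -85.5 bp from that second start, whose upstream bases are shown above. The long ETS form begins at position 16 after this start. A region of 10 factors lies 5.67 kb into the gene at chr12:55389633-55390151, and one of 11 factors lies 28.8 kb above the gene at chr12:55446979-55447534. The boundary rule thus counted Psma6 as empty, while the listed internal start had 7 factors, including the only Tal1 peak within 1 kb of a start site of any of the 43 members.

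**Figure D5:**
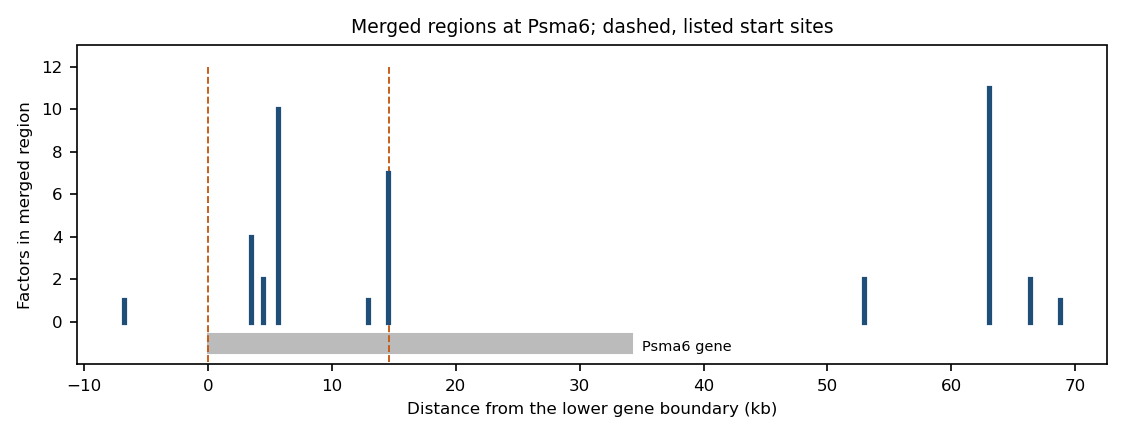
Merged regions in the locus of Psma6 by distance from the lower gene boundary (kb, horizontal axis) and number of factors (vertical axis); the grey bar is the gene and dashed lines are the listed start sites at 0 and 14.6 kb. The region of 7 factors stands at the second start site and no region stands at the first.

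Counting at the listed start sites instead of the boundaries, an alternative added after the values were seen, gave 39 of 43 members with a peak (90.7%), beside 52.3% of all genes with an entry. Besides Psma6, Psmf1 then had Lmo2. Psma3, whose listed start lies 5340 bp inside its lower boundary, then had Spi1 alone instead of 3 factors. Which start is used in Hoxb8-FL cells cannot be read from these lists.

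The proteasome genes were close to other families of constantly expressed genes. Of 79 cytosolic ribosomal protein genes, 74 (93.7%) had a peak near a boundary, with a median of 4 factors, and of 85 mitochondrial respiratory chain genes 73 (85.9%), with a median of 2. Fli1 was near 69.6% of the ribosomal and 49.4% of the respiratory chain genes, beside 52.9% of the proteasome genes. Runx1 was near 31.6% and 23.5%, beside 29.4%, and Tal1 near 1.27% and 3.53%, beside none. Between these 2 families the proteasome genes held a middle place for Fli1, Erg, Runx1 and Spi1. The high share of occupied boundaries was thus found in all 3 families.

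Other genes of the pathway, listed by function, had similar values. Of 23 listed genes 22 matched the table, all but Paaf1, and 19 of the 22 had a peak near a boundary, with a median of 3 factors. Beside this stand 53.5% of all genes and 13.1 of the 22 expected from genes of like length. Adrm1 and Uchl5, a ubiquitin receptor of the proteasome and the deubiquitinase it recruits, had the same 6: Cebpa, Erg, Fli1, Lmo2, Runx1 and Spi1, which is also the set at Psmc2. Pomp, which matures the core particle, had Erg, Fli1, Lmo2, Runx1 and Spi1. Nfe2l2 had Fli1 and Spi1 and Nfe2l1 had Cebpb, while Ddi2, the protease that activates the Nfe2l1 protein, and Ngly1, the glycanase that processes it, had none near a boundary. Ecpas also had none, as did 46.5% of all genes. Tal1 was near none of the 22 pathway genes, beside 4.68% of all genes, and with 22 genes a count of none tells little.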

How the data were processed

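ChIP-seq peak lists of 13 factors, 1 library each, were analysed. The deposited values are chromosome, start and end of each peak in base pairs, with no score, signal or count, per the deposited files. Bowtie2, MACS2 and bedtools were used with the builds mm10 and GRCm38, per the submitters' processing notes, which give no versions, calling threshold or use of IgG. Formaldehyde was 0.4% or 1%, and the labels do not say for which library. A threshold or depth that differs between libraries changes which peaks are listed.

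Peaks near boundaries and in loci, merged regions (overlap of 1 bp or more) and promoter letters were counted with Python 3.11.15, numpy 2.4.6 and pandas 2.3.3 (figures: matplotlib 3.10.9), tested on simulated peaks. The 3 mitochondrial peaks were left out. Expected counts sum, over members, the share of all genes of the same of 10 classes of gene length, in place of random genes of matched length. No p-value was computed. Coordinates count from 1.

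Members, lists and windows were chosen with earlier results of these data known. Named are the 3 members of each role with the most factors near a boundary, every member with none, the members and regions with the most factors, and pairs that share peaks. Promoters shown were to be the 3 with the most factors and 1 or 2 with none. Psmc2 was left out because its window overlaps Dnajc2. The promoters of Psme4, Psmb4, Psmd8 and the internal start of Psma6, like other genes and sets named, were chosen after their values were seen. Of the pathway genes, 1 is not reported here by name.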

Additional observations from a re-analysis of the deposited data

How the results depend on the processing

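Of the summaries, 3 moved with the settings. When each list was cut to the first 50% of its lines, the median number of factors near a boundary was 1 for members and 0 for all genes. Without the 21 members that have a neighbour within 1 kb, 25 of 30 members had a peak near a boundary. That count was lower because fewer members were left, and the share was 83.3%, beside 86.3% of all 51 members. With a 10 kb flank in place of 50 kb, the median number of factors in the locus was 5, as for all genes. By factor, counts near a boundary also fell with the first 50% of lines, as by construction fewer peaks are used: to 17 members for Fli1, 7 for Erg and for Cebpa, and 4 for Runx1, the last beside 7.05% of all genes (7.84% of members). Lmo2 was then near 2 members (3.92%), under its 6.23% of all genes, and Gfi1 near 2, under its 4.03%. Tal1, Meis1 and Lyl1, above all genes within 50 kb, were below them with the 10 kb flank, at 12 loci (23.5%, beside 32.2%), 10 loci (19.6%, beside 26.9%) and 10 loci (19.6%, beside 21.0%). Gfi1 and Gfi1b then equalled all genes to within 1 percentage point (27.5% beside 27.2%, and 25.5% beside 25.3%). By promoter G+C content Tal1 was in 24 of 43 loci, where 26.5 were expected. With a 2 kb window Tal1 was near 3 members, and Lyl1 near 4 (7.84%), then above its 5.06% of all genes. The other summaries over all factors, under the remaining alternatives that were run, stayed within 1.5 times their main value. Further counts of single factors did not. With the 10 kb flank Runx1 was in 24 loci, Erg in 19, Lmo2 in 29 and Gata2 in 9. With a 500 bp window Gfi1b was near 3 members, and with the first 50% of lines Cebpb was near 8. Each of these stayed above its share of all genes. No paired analysis was possible because each factor has 1 library and no result comes from a test. Depth is unknown, so a peak not listed may lie under the calling threshold.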
